A study of Mus musculus with 6 samples.

Results

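Beta-2 microglobulin, the product of the gene B2m, was followed in the liver of C57/BL6 mice from late gestation to adulthood. B2m was the 1 gene chosen, through the array probe that carries its RefSeq accession NM_009735.3. It is 1 of 15 genes that can be named on this array, which holds 60915 probes outside its controls. The probe was printed 20 times on every array, and all spots not marked as outliers by the scanner software were used. B2m was chosen with its difference between the stages already known, and the choice rests on that same contrast. Its levels and their difference are therefore given as a description, with no test.

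Fetal livers at embryonic day 18 made up 1 group and livers of adults at 2 months the other, with 3 arrays each and all animals labelled male and untreated. According to the design text, each group comprised 3 separate experiments. The labels mention no pooling of livers. RNA depleted of ribosomal RNA was copied with random primers, labelled with Cy3 and measured on Arraystar's mouse lncRNA array, an Agilent product that also carries coding transcripts and uses 1 colour.

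Beta-2 microglobulin is the small light chain of MHC class I molecules. It binds the class I heavy chain without being anchored in the membrane itself, and heavy chains that lack it fold poorly and hardly reach the cell surface. The complex displays peptides from inside the cell to CD8 T cells, and nearly all nucleated cells make it. The same light chain pairs with the class I-like proteins HFE, which takes part in the control of iron, FcRn, the receptor that carries IgG and albumin, and the lipid-presenting CD1d. Interferons raise the transcription of B2m together with that of the heavy chains. Adult liver is mainly made up of hepatocytes by mass, while fetal liver is also a site of blood formation.

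The 250 bases before the annotated start of B2m are shown because they hold the promoter of the transcript that was measured. The sequence is from RefSeq, build GRCm38.p6, at chr2:122147437-122147686 on the plus strand, and the capitals mark matches to 5 short motifs.
B2m: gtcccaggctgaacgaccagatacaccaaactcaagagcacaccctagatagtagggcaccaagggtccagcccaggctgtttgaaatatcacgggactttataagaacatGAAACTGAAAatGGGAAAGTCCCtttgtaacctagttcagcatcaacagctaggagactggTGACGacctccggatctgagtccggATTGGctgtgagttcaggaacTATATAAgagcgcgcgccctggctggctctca
The motifs were picked as elements known from class I promoters and core promoters, with the sequence in view, and both strands were searched. The interferon-stimulated response element, searched as GAAA and GAAA with 2 bases between them, begins 139 bases before the start, and 2.98% of the 32851 windows of this length in the table hold it. The NF-kB motif, searched as GGGA and TCC with 3 bases between them, matches on both strands at overlapping places from 127 bases before the start, and 3.86% of windows hold it. The core of the cyclic AMP response element, TGACG, lies 78 bases before the start and is held by 17.8% of windows. A CCAAT box on the minus strand begins 53 bases before the start, with CCAAT held by 33.8% of windows. The TATA-type box TATATAA begins 32 bases before the start and is held by 3.04% of windows. Each match describes letters in this window, and the arrays measured no binding to it.

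B2m was bright on all 6 arrays and brighter on every adult than on any fetal array. In bulk liver RNA, fewer cells that make B2m and less B2m RNA per cell cannot be told apart. On adult array 1 the processed signal of the spots, in units of scanner intensity before any scaling between arrays, ran from 74324 through a median of 78414 to 81698. On adult array 2 it ran from 59601 through 61650.3 to 63593, and on adult array 3 from 52152 through 54062 to 57283. These 3 ranges did not touch, and adult array 1 was the brightest.

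On fetal array 1 the processed signal ran from 6454 through a median of 6563 to 6804. On fetal array 2 it ran from 16350.4 through 16724 to 17063, and on fetal array 3 from 11129 through 11632 to 12036. Fetal array 2 was the brightest of the fetal arrays and fetal array 1 the dimmest, with a 2.54-fold range between their mean levels against 1.45-fold among the adult arrays. The groups did not overlap in any spot: the dimmest adult spot was 3.06 times as bright as the brightest fetal one. The local background beside the spots had medians of 23 to 27, every B2m spot was well above background, and none was saturated.

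**Figure D1:**
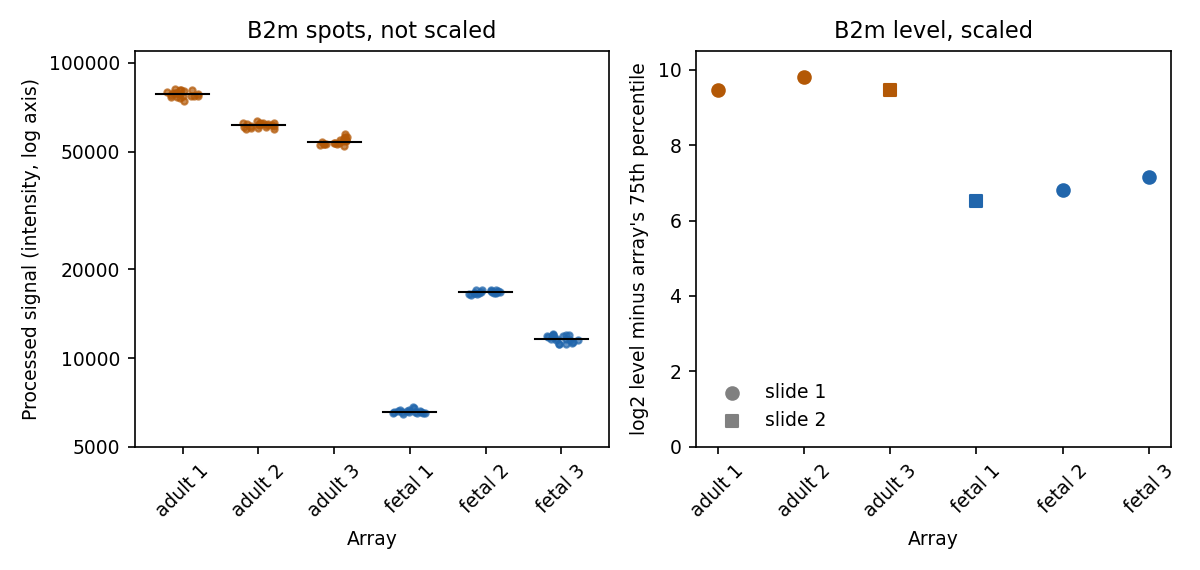
The left panel plots the processed signal of each B2m spot (log axis, no scaling) on the 6 arrays, with a line at the array's median; the right panel plots the mean log2 level of each array minus that array's 75th percentile. Orange is adult and blue is fetal, circles are slide 1 and squares are slide 2. The adult medians lie between 54062 and 78414 and the fetal medians between 6563 and 16724, and the scaled levels of the groups lie apart as well.

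The spots of an array agreed closely. Between 17 and 20 spots were used per array, and on the log2 scale their SD was 0.02 to 0.04, which is a coefficient of variation of 1.18% to 2.62% on the linear scale. The highest spot used on an array was at most 9.92% above the lowest. The SD between arrays after scaling was 7.04 times the median SD between spots in adult liver and 10.9 times in fetal liver. Spots of 1 array share 1 RNA sample, so they show how well an array was read and are no replicates of a stage.

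Signals were then set against the 75th percentile of each array, a scale factor that stands for how bright the array was as a whole. That factor was 112, 68.3 and 76.9 on adult arrays 1 to 3. It was 72.5, 149 and 81.9 for the fetal arrays in the same order. On the log2 scale it was 6.39 ± 0.38 in adult and 6.59 ± 0.56 in fetal liver (SD, n = 3 each; exact two-sided permutation test, p = 0.6, adjusted over 2 tests 0.6). The share of probes well above background was 48.6% ± 3.19 and 53.3% ± 6.60 (same exact test, p = 0.4, adjusted 0.6). With 3 arrays against 3 this test cannot go below 0.1. Its p sets the difference in means against those from all relabellings of the arrays.

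After scaling, the log2 level of B2m was 9.45, 9.81 and 9.46 in adult samples 1, 2 and 3. In fetal samples 1, 2 and 3 it was 6.51, 6.81 and 7.15. The groups did not overlap, and 2.30 log2 units separated the lowest adult from the highest fetal array. Scaling changed the order inside each group. Adult array 2 became the highest in place of adult array 1, and fetal array 3 in place of fetal array 2, which had the largest scale factor. The range among fetal arrays narrowed from 2.54-fold to 1.56-fold, and that among adult arrays from 1.45-fold to 1.29-fold.

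The mean log2 level was 9.57 ± 0.21 in adult and 6.82 ± 0.32 in fetal liver (SD, n = 3 each). The difference, fetal minus adult, was -2.75 with a standard error of 0.28 from the limma fit over all tested probes, a level 6.74-fold lower in fetal liver. Of the 9 pairings of an adult with a fetal array, the smallest scaled fold was 4.92 (adult array 1 over fetal array 3) and the largest 9.91 (adult array 2 over fetal array 1). Without scaling the same pairings spanned 3.24-fold to 11.9-fold, and B2m was lower on the fetal array in every one. For background, the arrays of the groups did not overlap with fetal liver lower for 27.1% of the 32330 tested probes. limma called 14.8% of them lower in fetal liver, at an adjusted p under 0.05 and at least 2-fold, and 26.0% in either direction. The share called lower depended on the scaling: it was 6.34% without scaling and 23.4% with each array scaled to the mean of the other RefSeq-named probes.

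Arrays that share a scan identifier in the file headers were taken to be on 1 slide, and no slide number was read. Both stages were present on both slides so defined. On slide 1, with adult arrays 1 and 2 and fetal arrays 2 and 3, the log2 difference of B2m was -2.65. On slide 2, which held adult array 3 and fetal array 1, it was -2.96. B2m was thus 6.28-fold lower in fetal liver on slide 1 and 7.75-fold lower on slide 2. The slide 2 value rests on 1 array of each stage.

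Fetal array 1, the lowest for B2m, stood apart from the other fetal arrays over the 32250 tested probes that have a value on every array. Its correlation with fetal arrays 2 and 3 was 0.89 and 0.92 across probes, while those correlated with each other at 0.98 and the adult arrays among themselves at 0.97 to 0.98. Its B2m level was 0.47 log2 units under the mean of the other fetal arrays. Of the other 14 genes with RefSeq probes, 10 were lower there too, with a median of -0.31 and a range of -1.43 to 0.65. Without this array the B2m difference was -2.59, or 6.04-fold.

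The place of the probe by brightness moved with the stage. From the brightest probe down, B2m ranked 307, 274 and 293 on adult arrays 1 to 3, among the probes with at least 1 spot not marked as an outlier (60876 to 60902 per array). On fetal arrays 1 to 3 it ranked 1690, 1289 and 1110. It thus lay within the brightest 0.504% of probes on every adult array and within the brightest 2.78% on every fetal array. These ranks need no scaling between arrays. Brightness depends on the probe as well as on the transcript, so a rank does not order B2m among genes by their amount of RNA.

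By the size of its change, B2m lay in the lower tail. Among the 22786 probes well above background on all 6 arrays it was in place 657 from the end that was lowest in fetal relative to adult liver, which is 2.88% of them. Its neighbours in that order lay at -2.75 as well. The median log2 difference over these probes was -0.08, and the 5th and 95th percentiles lay at -2.15 and 2.06, so B2m was beyond the 5th. Counting both directions, 607 probes were higher in fetal liver by more than B2m was lower, and B2m took place 1264 by size. A shift of a whole array moves every probe alike, so the place among signed differences was by construction also 657 without scaling and with median scaling. It was not fixed under other choices. With normexp background correction, which here adds an offset of 50 to every signal, B2m was in place 408. Among the 32330 probes well above background on at least 3 arrays, B2m was in place 1398.

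Among probes at least as bright as itself, B2m also lay in the lower tail. Of the 22786 probes, 577 had a mean level over the 6 arrays at or above that of B2m. Among these, B2m was in place 12 from the fetal-low end, which is 2.08% of them, against 2.88% of all 22786. B2m took place 14 by size in either direction, with 2 probes higher in fetal liver by more. The 577 probes had a median log2 difference of -0.07, with a 5th percentile of -1.97 and extremes of -4.95 and 3.48.

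**Figure D2:**
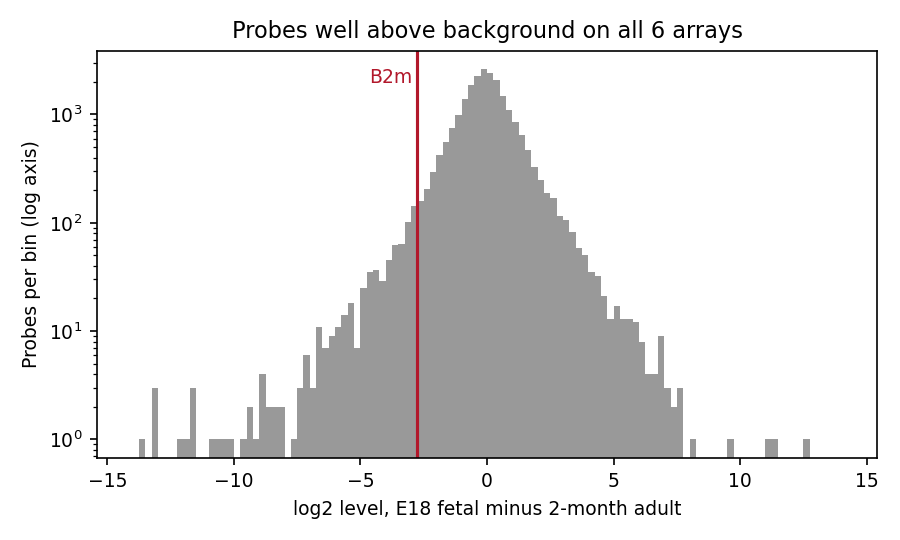
The histogram counts the 22786 probes well above background on all 6 arrays by their log2 difference, fetal minus adult, in bins of 0.25 with a log axis for the counts. The line marks B2m at -2.75, in place 657 from the low end.

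Of a list of 31 genes of class I antigen presentation and partners of B2m, only B2m is named on this array. The heavy chains, the peptide transporters TAP1 and TAP2 and the immunoproteasome subunits were thus not analysed here. B2m was therefore set beside the other 14 genes with RefSeq probes, among them several used as reference genes in expression work. B2m had the most negative fetal minus adult difference of the 15. The others were split evenly, with 7 lower and 7 higher in fetal liver under this scaling, a median log2 difference of 0.12 and 12 of 14 within 1 log2 unit of 0. The signs of those closest to 0 depend on the scaling. The arrays did not overlap between stages for 9 of the 15 genes, or 60.0%, against 47.6% of all tested probes.

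Relative to each of these genes, which removes the scale factor of the array, B2m was lower in fetal liver by a different amount. Against Ppia, a cyclophilin whose log2 difference was -0.05, B2m was 6.50-fold lower in fetal liver. Against the glycolytic enzyme gene Gapdh, at -0.10, it was 6.29-fold lower. The smallest relative fall was 3.64-fold, against the lactate dehydrogenase-like gene Ldhal6b at -0.89. The median over the 14 genes was 7.34-fold. The relative differences were largest against Tuba1b, an alpha-tubulin gene, at 46.7-fold, and Tfrc, the transferrin receptor gene, at 82.8-fold. Those genes were higher in fetal than in adult liver by 2.79 and 3.62 log2 units (limma, Benjamini-Hochberg adjusted p = 9.1e-04 and 1.8e-04).

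**Figure D3:**
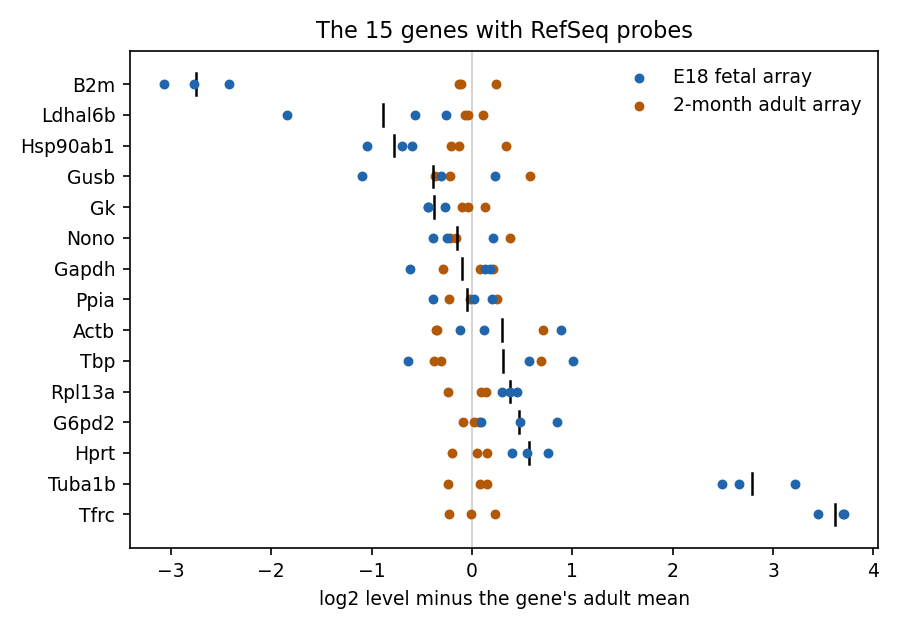
Each row is 1 of the 15 genes with RefSeq probes, and each point 1 array, plotted as its scaled log2 level minus the mean of the adult arrays for that gene; the black tick is the mean of the fetal arrays. B2m is at the top with the 3 fetal arrays below every adult array, and Tuba1b and Tfrc at the bottom lie on the other side.

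Tfrc is also a marker of erythroid precursors, which need iron for haemoglobin. It was the only one of 8 erythroid markers that is named on the array, so the summed level of that list could not be formed. Its log2 level was 8.25, 8.24 and 7.99 in fetal samples 1, 2 and 3, against 4.77, 4.54 and 4.31 in the adult ones, so Tfrc and B2m moved in opposite directions between the stages. The part of erythroid cells in the B2m difference was not tested. None of the listed markers of hepatocytes, macrophages, leukocytes, endothelial or stellate cells is named on the array, so the liver label was not checked against them.

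The spread of B2m inside a stage lay within that of the other named genes. Its SD of 0.21 between adult arrays was in place 9 of 15 from the largest, where the other genes ran from 0.08 to 0.62. Its SD of 0.32 between fetal arrays was in place 8, where the others ran from 0.08 to 0.85. The difference between stages was 10.2 times the pooled SD within stages, which was 0.27. The choice of B2m rests on that difference, so the ratio is a description and no test.

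Probes with a profile like that of B2m were looked for by the root mean square distance between log2 levels over the 6 arrays, each probe centred on its own mean. Among the 243 other probes above background on all arrays that have a gene accession or lincRNA in their name, the nearest was humanlincRNA1166+_P1, at a distance of 0.48. It stood at 3.38, 2.46 and 3.42 in adult samples 1, 2 and 3, against 0.07, 0.45 and 0.16 in the fetal ones, a difference of -2.86. The next were mouselincRNA0538+_P1 at 0.52 and mouselincRNA0892-_P1 also at 0.52, with differences of -2.02 and -2.69. For each of these, adult array 2 was the lowest adult array, where B2m was highest. Another 588 probes, with neither a gene accession nor lincRNA in their name, lay nearer to B2m than these. Of them, 77 lay within 0.25, and the median distance over all 22785 probes was 1.41. B2m was chosen for its step between the stages, so this likeness is a description and carries no test.

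Under 21 other choices of scaling, background, spot average, slide and arrays, B2m was lower in fetal liver each time. Among these, fits with slide or replicate number as a block could not change the difference, since each block holds equal numbers of both stages. The smallest difference was 5.70-fold, with quantile normalization. The largest was 8.94-fold, with each array scaled to the mean of the other 14 genes, a mean that includes Tfrc and Tuba1b.

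**Figure D4:**
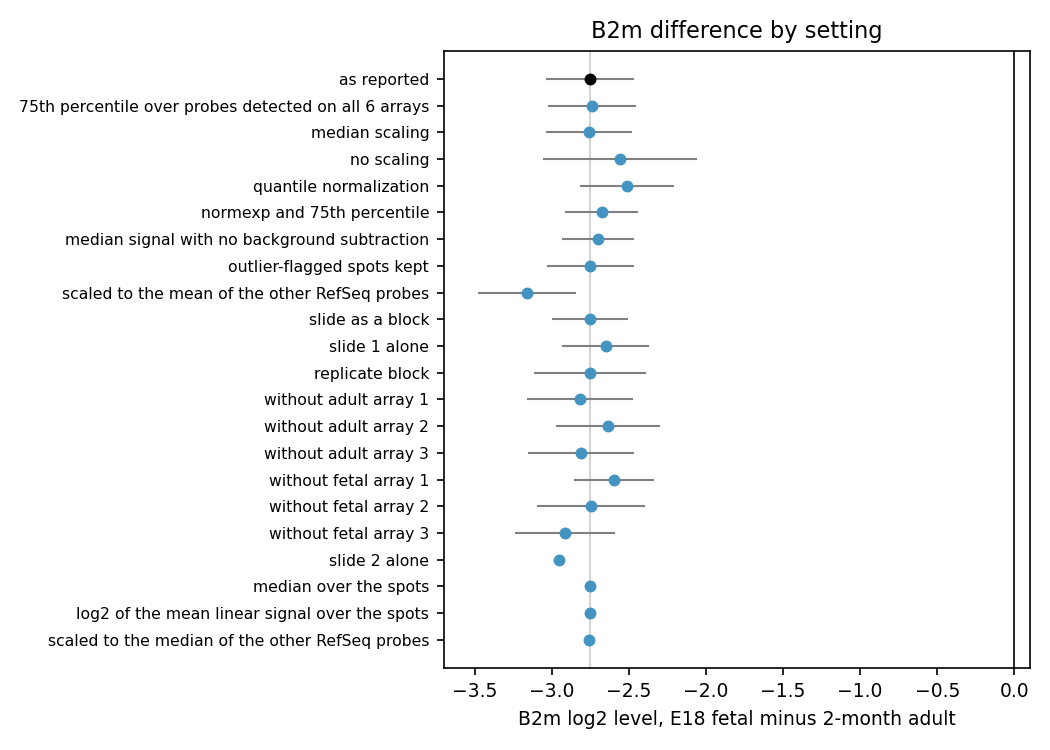
Each point is the B2m log2 difference, fetal minus adult, under 1 setting, with a bar of 1 standard error from limma where one was fitted; the black point is the value reported. All settings lie between -3.16 and -2.51, to the left of 0.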

How the data were processed

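Liver RNA of 6 samples (3 fetal, 3 adult) was read on one-colour arrays. Per the file headers, the deposited scanner files hold intensity read with Agilent Feature Extraction 11.0.1.1 on a grid of build mm9. The authors' processed signal is background-subtracted, with low values raised to a floor, and not scaled between arrays. Left out were 1439 control spots, 15 negative-control probes (300 spots) and, on each array, 29 to 68 spots marked as outliers. Values are log2 processed signals averaged over a probe's spots, minus each array's 75th percentile. A probe counted as well above background on an array when at least 0.5 of its spots were. Probes so on at least 3 arrays were fitted with limma 3.58.1 in R 4.3.3 (two-sided, Benjamini-Hochberg), which was tested on simulated data. The number of arrays limits the precision. All 15 RefSeq accessions matched a symbol in a RefSeq table of GRCm38. A series table was not used, since it lists no probe of these genes. Every RefSeq-named probe, and the 3 named probes most like B2m, could be named. B2m and the gene lists were chosen with earlier results of these data known. The alternatives tried were other scalings, backgrounds, filters, spot averages, blocks, single slides and each array left out.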

Additional observations from a re-analysis of the deposited data

How the results depend on the processing

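The B2m difference of -2.75 stayed below 0 under all 21 alternatives run. The slide and replicate blocks among them could not move it, since each block holds equal numbers of both stages, and changed only its standard error. In all, 20 of the 21 moved it by less than the pooled SD within stages. The exception was scaling to the mean of the other RefSeq-named probes (-3.16), which also lowered the median of all tested probes from -0.07 to -0.47; without scaling that median was 0.13. Relative to that median B2m stood at -2.69 in all 3 cases. The 3 cases differ only by a constant per array, so this sameness follows by construction. Scaling to the median of those probes, added after seeing the data, gave -2.76. Quantile normalization gave the smallest difference, -2.51. Leaving out 1 array at a time gave -2.92 to -2.59. A further fit with arrays weighted by limma, not among the 21, gave -2.57. The place of B2m, 657, went to 408 with normexp at an offset of 50. It went to 1398 among probes above background on at least 3 arrays, where more probes were ranked. For this place, leaving out arrays gave 590 to 765. All 24 alternative brightness ranks were within 1.5 times of those reported. Alternatives written for the mean signal were run on the median signal, a choice made after seeing the data.

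limma called 8421 probes, 3634 higher and 4787 lower in fetal liver. It called 5192 without scaling (3141 higher, 2051 lower) and 4541 with normexp at an offset of 50. Among the probes above background on all 6 arrays it called 5210. With slide as a block it called 10124, and with arrays weighted by limma 10982. Scaled to the mean of the other RefSeq-named probes it called 2273 higher and 7560 lower. Leaving out arrays gave 5318 (without adult array 2) to 10020, with 5384 without adult array 3. With the replicate block it called 4499 and the B2m difference was -2.75 (standard error 0.35). Deviations of same-numbered arrays from their group means correlated at -0.53, -0.35 and -0.31 across probes, and those of differently numbered arrays at -0.49 to 0.65. Deviations within a group depend on each other, so these correlations cannot settle whether the replicate numbers pair the samples. The cause of the changes of count was not tested.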
